A study of Mus musculus with 2 samples.

Results

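The clustered protocadherin genes are the protein-coding genes of mouse chromosome 18 whose symbols start with Pcdha, Pcdhb or Pcdhg in the GENCODE M21 annotation. This rule found 57 of 21938 protein-coding genes, with 14 in the alpha, 22 in the beta and 21 in the gamma cluster, all on the plus strand. Binding of CTCF, an architectural protein whose zinc fingers read a directional DNA motif, was mapped by ChIP-seq in the liver of B6NCrl mice at postnatal day 0. The series holds 1 group with 2 replicates and no treatment. Per the labels, both replicates came from powdered livers that were pooled over several dissections, carry the same biosample and donor labels, and have no recorded sex. The spread between them may therefore be technical. Liver is a mixture of cell types, and a peak list does not show which of them carried the binding. No RNA was measured, so the tissue label could not be checked against marker genes. A control experiment named in the labels was not analysed here.

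Clustered protocadherins are cadherin-like adhesion proteins of the cell surface, studied mainly in neurons, where each cell switches on a small choice of promoters from the clusters and the resulting mixture of proteins lets branches of the same cell recognise and avoid each other. In the alpha and gamma clusters every gene has its own variable first exon, which encodes the extracellular and transmembrane parts and is spliced to constant exons shared by the whole cluster, whereas a beta gene is encoded by its own exon alone. Most of the promoters carry a conserved element that CTCF binds, many alpha genes have a further CTCF site inside the first exon, and the element has been described as missing at Pcdhac2, Pcdhb1, Pcdhgc4 and Pcdhgc5. The C-type members (Pcdhac1, Pcdhac2, Pcdhgc3, Pcdhgc4 and Pcdhgc5) lie at the downstream ends of the alpha and gamma clusters, and most of them are active in most neurons rather than chosen at random.

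In the optimal peak list, CTCF lay at or near the first exons of most gamma genes and of a minority of alpha and beta genes. A gene was counted when a peak summit of the optimal list lay within 2 kb of its first exon. The optimal list is the set of 57220 peaks whose ranks repeated between the authors' lists. Of the gamma genes, 18 of 21 were counted (85.7%, 95% exact binomial interval 63.7 to 96.95), compared with 5 of 14 alpha genes (35.7%, 12.8 to 64.9) and 6 of 22 beta genes (27.3%, 10.7 to 50.2). Over all members the count was 29 of 57 (50.9%, 37.3 to 64.4). Of the other protein-coding genes, 35.7% had such a summit. The first exons of these genes are long, with medians of 2490 bp in alpha, 3714 bp in beta and 2607 bp in gamma against 208 bp elsewhere. Among the other genes with a first exon of at least 2 kb the share was 41.2%. The alpha and beta intervals include both backgrounds, so these shares are no result about those clusters, while the lower limit of the gamma interval lies above both. Genes of a cluster are neighbours and not independent, and the intervals cover counting error only.

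The same order held close to the gene starts. Within 1 kb of the start of the first exon a summit was found at 17 gamma (81.0%, 58.1 to 94.6), 5 alpha and 6 beta genes, in all 28 of 57. The share was 28.1% among other protein-coding genes and 25.7% among those with a long first exon. By type, 11 of 12 gamma A and 5 of 6 gamma B genes had such a peak, compared with 2 of 5 C-type genes. At the 2 kb limit, Pcdhgb2 was counted through a summit 1941 bp after its exon that belongs to the start of Pcdhga5, and Pcdhga10 and Pcdhb16 also had a neighbour's summit just inside, at 1931 and 1887 bp. Just outside lay neighbours' summits at 2290 bp from Pcdhgb6, 2331 bp from Pcdhgb1 and 2471 bp from Pcdhga9.

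**Figure D1:**
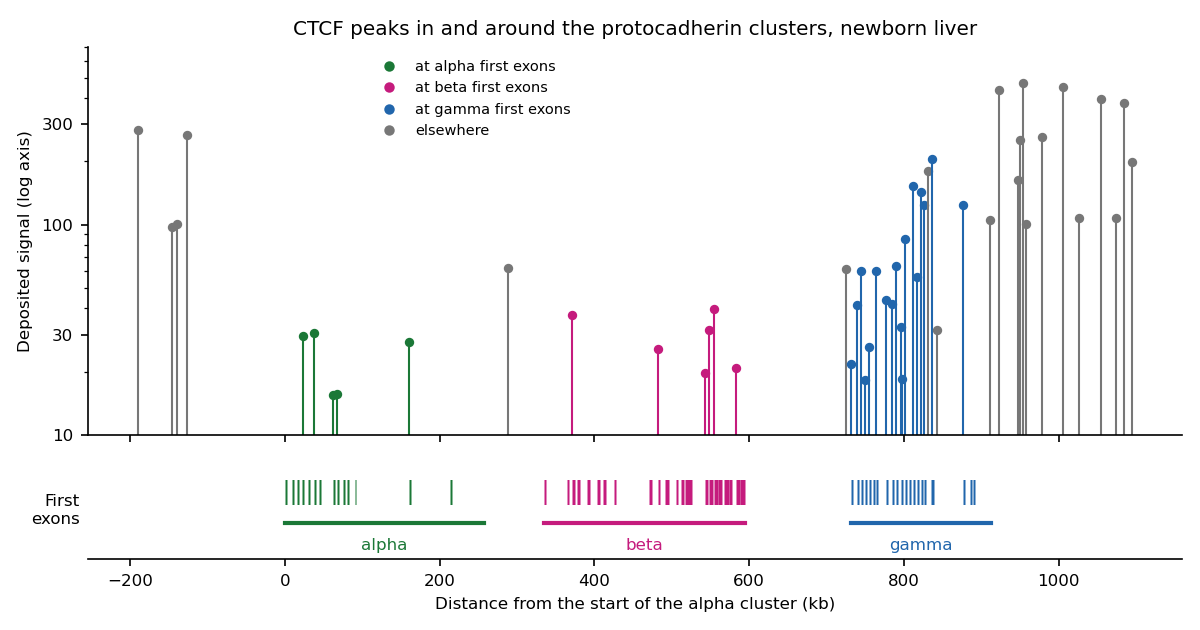
CTCF peaks between 200 kb upstream and 200 kb downstream of the clusters, as deposited signal on a log axis against the distance from the start of the alpha cluster in kb. Coloured points are peaks within 2 kb of a first exon, grey points lie elsewhere, and the ticks below mark the first exons of the 57 genes. The 5 alpha and 6 beta peaks stay below 40, gamma peaks reach 204.6, and the downstream flank holds 12 peaks from 101.0 to 472.8.

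The peaks at alpha and beta starts were weak, and those at gamma starts ranged from weak to moderately strong. For each gene the strongest summit within 1 kb of the start was taken. Signal is the value that the authors deposited for each peak, on a scale that is not stated, and it is not compared here between the replicate lists and the others. All 50 peaks in and around the clusters had the same summit and signal (within 0.1%) in the pooled list, so values of the pooled and the optimal list are set side by side. Its median was 27.8 at the 5 alpha genes (range 15.5 to 30.5), 28.7 at the 6 beta genes (19.8 to 39.8) and 60.2 at the 17 gamma genes (18.4 to 204.6). The median of the whole list was 71.2, and that of the 6154 other genes with a peak near the start was 60.9, with quartiles of 26.7 and 178.2. Every alpha and beta value lay below the median of the gamma genes. Within gamma the median was 85.7 over 5 B genes (18.4 to 152.7) and 43.75 over 11 A genes (21.9 to 204.6), and the ranges overlap. All of these B genes but Pcdhgb1 belong to the set from Pcdhgb4 to Pcdhga12, in the downstream part of the cluster.

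Pcdhga12, the last gamma A gene before the C-type genes, carried the strongest peak of all members. Its signal was 204.6 in the optimal list, 108.7 in the list of replicate 1 and 95.01 in that of replicate 2. The peak lies on mm10 at chr18:37765789-37766020, in the part of the first exon (37765580 to 37768540) that precedes the coding sequence. Pcdhgb6, whose peak at chr18:37741929-37742113 overlaps the 5' end of its first exon, had a signal of 152.7, with 71.3 and 80.98 in the replicates. Pcdhgb7 had 143.1, with 70.04 and 72.07 in the replicates, at chr18:37751443-37751650. Both genes encode gamma B proteins, and both peaks fall within introns of the more upstream gamma genes, whose transcripts run through this interval to the constant exons. Pcdhga11 followed with 124.8 (59.97 and 64.73). Pcdhgc3, a C-type gene and the only one of the gamma cluster with a peak, had 123.7 (62.79 and 57.83). In both replicates these 5 genes, all in the downstream part of the cluster, were the strongest members.

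Among the gamma genes with a peak at the start, signal was higher toward the downstream end of the cluster. Across the 17 gamma genes with a peak, which share both libraries and were taken in their order along the chromosome, Spearman's rho of signal with position was 0.77, and it was 0.75 in replicate 1 and 0.79 in replicate 2. It was 0.76 over the 16 genes that remain without Pcdhgc3. The first 8 genes with a peak, from Pcdhga1 to Pcdhga7, had a median signal of 41.7 with a range of 18.4 to 60.3. The next 8, from Pcdhgb4 to Pcdhga12, had a median of 105.3 with a range of 32.7 to 204.6. The ranges overlap, since Pcdhga8 (32.65) and Pcdhga10 (56.54) in the second set were below several genes of the first. Pcdhga1, the first gene of the cluster, had 21.87 (9.957 and 11.23 in the replicates), and Pcdhgb1 had the lowest value, 18.36 (6.463 and 13.27). The 4 gamma genes without a peak at the start are left out of these values, and the trend does not extend to them. Pcdhgc4 and Pcdhgc5, at the downstream end, had no call 100 to 400 bp upstream of the coding start in the pooled list or in either replicate list. Pcdhga9, between Pcdhgb5 and Pcdhgb6, had a pooled-list call of only 16.40, and Pcdhgb2 one of 13.19.

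**Figure D2:**
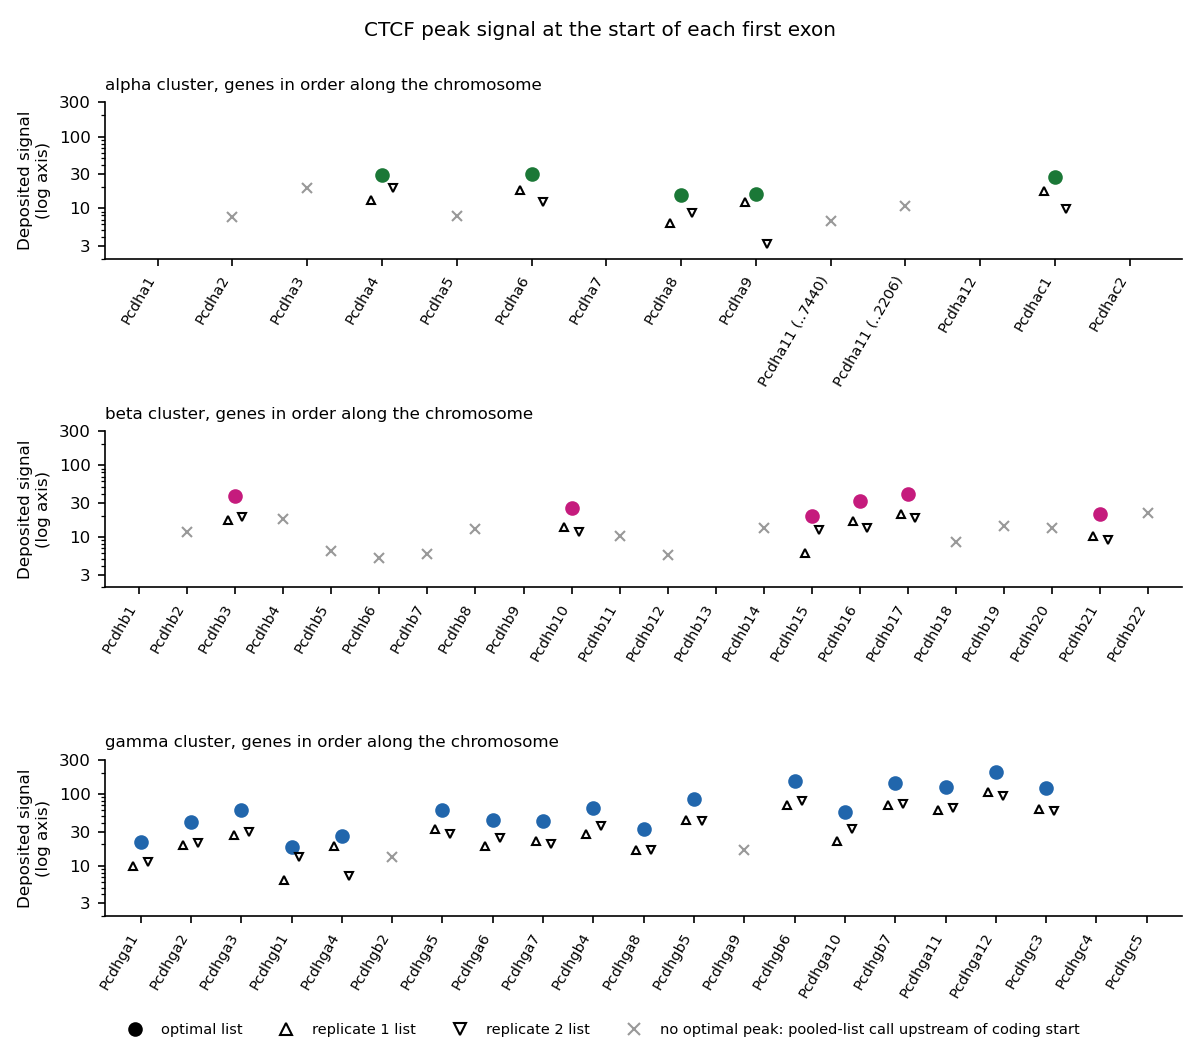
Deposited signal (log axis) of the strongest peak within 1 kb of the start of each member, in order along the chromosome, with 1 panel per cluster. Filled circles are values of the optimal list, open triangles those of the replicate lists, and crosses are pooled-list calls 100 to 400 bp upstream of the coding start at genes with no such optimal peak. Replicate values are not compared with those of the optimal and pooled lists; the 5 gamma genes from 123.7 to 204.6 lie toward the downstream end of their panel.

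In the alpha cluster the strongest value was that of Pcdha6, 30.51, with 17.85 in replicate 1 and 12.15 in replicate 2. Pcdha4 had 29.64 (13.27 and 19.32), and the C-type gene Pcdhac1 had 27.84 (17.65 and 9.887). The replicates put Pcdha4 and Pcdha6 in opposite order, so these values do not rank them. Pcdha9 had 15.71, and its replicate values of 12.24 and 3.218 lay far apart, at ranks 48191 and 174753 of 300000 peaks. Pcdha8 had 15.47 (6.266 and 8.556). Of the 5 alpha peaks, 3 had a summit within 100 bp in the conservative list of 54864 peaks, compared with 5 of 6 beta and 15 of 17 gamma peaks. The share over all optimal peaks is not given here, so these matches are no result about the clusters. Counted by itself, the conservative list had a summit within 1 kb of the start at 4 alpha, 6 beta and 16 gamma genes. Within 2 kb of the first exon it had one at 8 beta genes.

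In the beta cluster Pcdhb17 had the strongest peak, 39.75 (20.91 and 18.27), at chr18:37484783-37485066. Pcdhb3 had 37.25 (17.31 and 18.83), Pcdhb16 31.69 (17.00 and 13.53), and Pcdhb10 25.78 (14.04 and 11.75). Pcdhb21 had 20.78 (10.45 and 9.005), and Pcdhb15 the lowest value, 19.75 (6.044 and 12.41). All but the peak of Pcdhb17, which lies in the untranslated part of its exon, had their summit just upstream of the annotated gene in intergenic sequence. The ranges of the alpha and beta peaks overlap, and no beta peak reached the strength of the downstream gamma peaks.

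All 50 optimal peaks in and around the clusters had a summit in both replicate lists within 100 bp, as did 97.1% of the whole list. The replicate lists were used to make the optimal list, so this match does not test it. Each replicate list ends at 300000 peaks and therefore holds many weak calls.

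CTCF summits lay just upstream of the coding part of most members with a peak. At 25 of the 28 members with a peak at the start, the summit lay upstream of the coding start, at a distance between 114 and 263 bp. It lay 191 to 257 bp upstream at all 17 gamma genes and 190 to 263 bp upstream at all 6 beta genes. The summit was also close to the annotated start, 6 to 114 bp upstream of it, at 23 of these 25 genes. The other 2 are Pcdhga12 and Pcdhb17. At Pcdhga12 the annotated exon begins further upstream than in its neighbours, so the summit is 319 bp after the annotated start, yet it is 218 bp before the coding start. At Pcdhb17 the summit is likewise 130 bp after the annotated start and 234 bp before the coding start. Of the other protein-coding genes that have their coding start in the first exon and a summit within 1 kb of the start, 33.0% had the strongest summit in the window 100 to 400 bp upstream of the coding start. This window was set after the values had been seen.

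Alpha genes were the exception. Pcdha4, Pcdha6 and Pcdha8 had their summit inside the coding part of the first exon, 464, 463 and 444 bp after the coding start. The spacing of these 3 summits differs by at most 20 bp. The other 2 alpha peaks followed the promoter pattern, with Pcdha9 at 114 bp and Pcdhac1 at 190 bp upstream of the coding start. In the pooled list, Pcdha6 also had a promoter call of 17.43 beside its exonic peak, and Pcdha4 one of 7.936. Pcdhga8 had a second optimal peak inside its first exon, 2264 bp after the start, with a signal of 18.38 against 32.65 at its promoter.

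**Figure D3:**
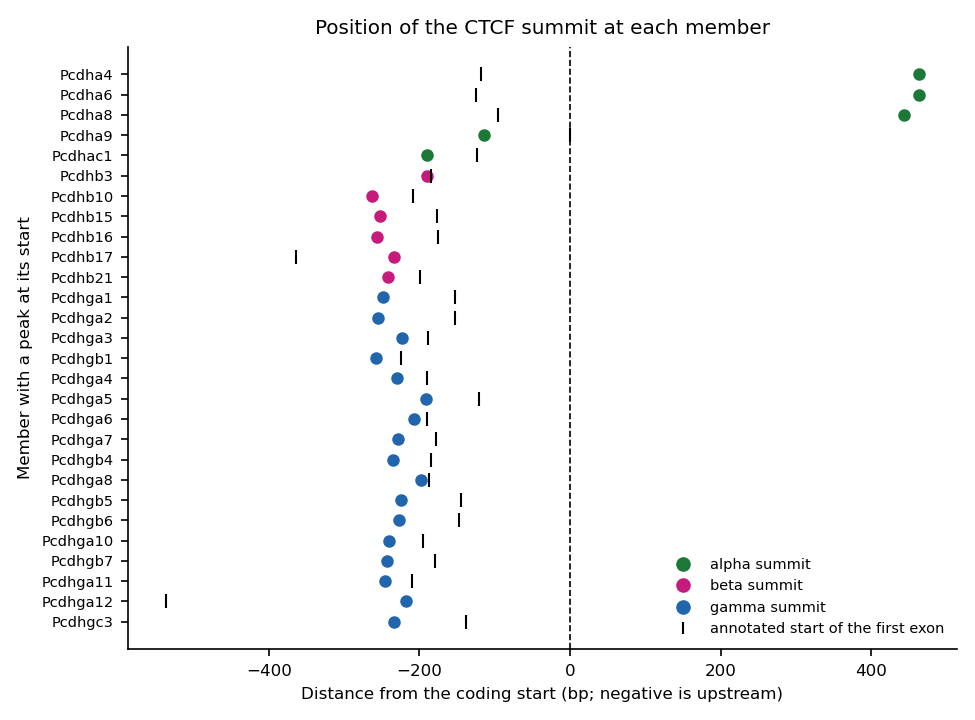
Distance of the summit from the coding start in bp, negative values upstream, for the 28 members with a peak within 1 kb of the start, in order along the chromosome from top to bottom. Circles are summits coloured by cluster, and black ticks are annotated starts of the first exon. All gamma and beta summits lie between 263 and 190 bp upstream, and 3 alpha summits lie 444 to 464 bp downstream.

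The sequence under the peaks differed between the clusters in a way that did not follow the signal. The CTCF motif was measured in 2 ways within 50 bp of the summit. The first is the CTCF core, a 14-base consensus that allowed up to 2 mismatches on either strand, present at 71.2% of all peaks. The other, added after the data were seen, is a 20-base position weight matrix trained on 17270 peaks of other chromosomes, with a threshold reached by 5% of windows displaced by 1 kb and a match at 85.3% of all peaks. All 5 alpha peaks had the core and a matrix match. Of the 6 beta peaks, 1 had the core and all 6 a matrix match. None of the 17 gamma peaks had the core, and 3 had a matrix match, those of Pcdhga3, Pcdhga7 and Pcdhga11. Each of these 14 matrix matches was in the forward direction, which is the direction of transcription. No sequence is printed for these sites.

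The stronger member peaks were those of gamma genes with a poor core near the summit. In the whole list the median signal was 228.1 for peaks with a perfect core, 118.2 with 1 mismatch, 62.2 with 2, 42.2 with 3, 28.6 with 4 and 19.7 with 5. The peaks of Pcdha4, Pcdha6 and Pcdha8 had perfect forward cores and signals at percentiles 3.95, 4.16 and 0.327 of the 5500 peaks with a perfect core. The peaks of Pcdhgb6, Pcdhgb7 and Pcdhga11, with 4 mismatches, stood at percentiles 92.6, 91.8 and 89.9 of peaks with as many. Pcdhga12, with 3 mismatches, stood at percentile 90.2, and Pcdhgc3, with 5, at percentile 95.7. Pcdhga12 also has a forward core with 2 mismatches and a matrix score of 14.658, the highest of the gamma genes, upstream of its coding start, but more than 50 bp from the summit. The 3 gamma peaks with a matrix match had a median signal of 60.3, and the 14 without had 58.4. All 6 member peaks with at most 2 mismatches lay in the lower part of the peaks with as many, at percentiles from 0.327 to 21.95. The 22 with 3 or more mismatches spread widely, from percentile 14.57 at Pcdhgb1 to 95.7, and 8 of them lay below percentile 50, of which 4 are beta and 4 gamma peaks.

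**Figure D4:**
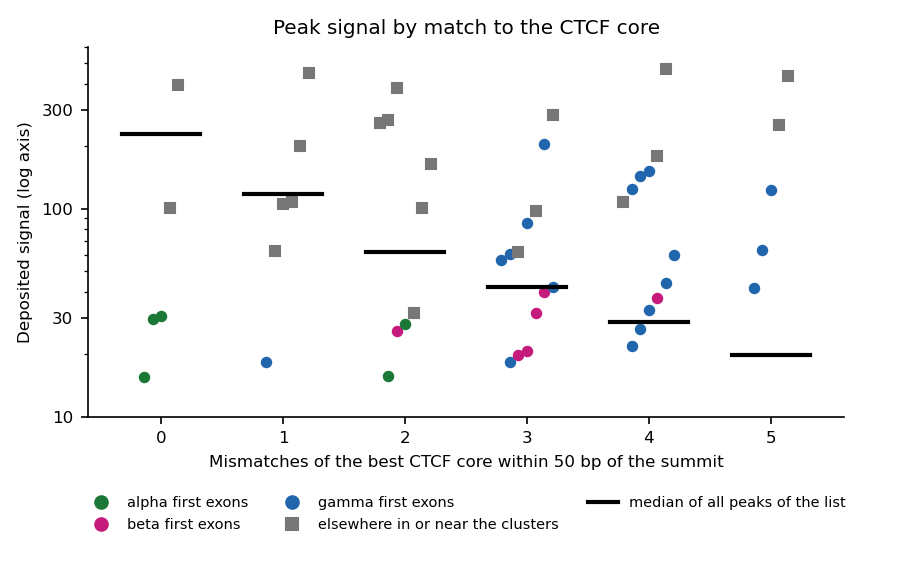
Deposited signal (log axis) of the 50 peaks in and around the clusters against the number of mismatches of the best core within 50 bp of the summit, on either strand; points are spread sideways for legibility. Circles are peaks at first exons by cluster, squares are other peaks, and black bars are the medians of the whole list. The alpha peaks with 0 mismatches lie at 15.5 to 30.5, under the bar at 228.1, and the gamma peaks with 5 mismatches lie above the bar at 19.7.

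Motif matches were then counted at fixed places of every member, with or without a peak, in the same windows for all genes; this count was also chosen after the data were seen. In the window 100 to 400 bp upstream of the coding start, a forward matrix match was present at 12 of 14 alpha and 21 of 22 beta genes, and at 4 of 21 gamma genes. It was present at 14.7% of the 13688 other protein-coding genes with the coding start in the first exon. No member had a reverse match there, whereas 12.4% of those other genes had. Optimal summits lay in the same window at 2 alpha (14.3%), 6 beta (27.3%) and 17 gamma genes (81.0%), and at 10.3% of the other genes. Of the alpha and beta genes with a match, 2 of 12 and 6 of 21 had a summit in the window. Of other genes with a match 31.7% had one, so the beta share is near that background. The alpha share rests on 2 of only 12 genes and is not read as a difference from it. All 4 gamma genes with a match had a summit, and so did 13 gamma genes without a match. Of these 13, some came near the threshold of 7.836 in the forward direction: Pcdhgb5 (7.301), Pcdhgb6 and Pcdhgb7 (7.002 each) and Pcdhgb1 (6.752). The others scored 6.152 or less. Pcdhb1 was the only beta gene with no forward match. The alpha genes with none were Pcdha12 and the gene ENSMUSG00000007440, which shares the symbol Pcdha11 with ENSMUSG00000102206 in this annotation, and both scored just under the threshold.

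**Figure D5:**
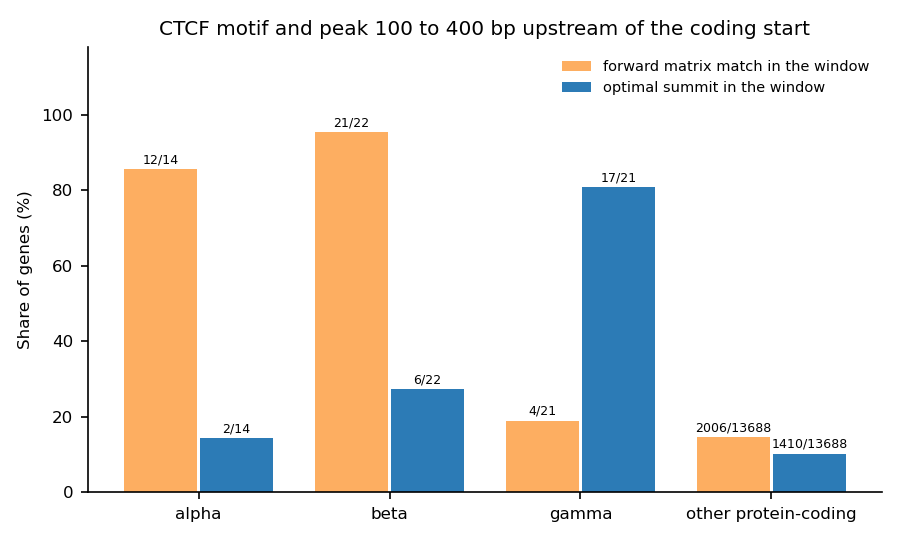
Share of genes in percent with a forward matrix match (orange) and with an optimal summit (blue) in the window 100 to 400 bp upstream of the coding start, for the alpha, beta and gamma clusters and for other protein-coding genes with the coding start in the first exon; counts stand above the bars. Alpha and beta have matches at 12 of 14 and 21 of 22 genes and summits at 2 and 6, gamma has 4 matches and 17 summits, and 10.3% of the other genes have a summit.

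Inside the first exon, alpha genes were the members that held the core in the forward direction. In the window 350 to 550 bp after the coding start, 10 of 14 alpha genes had a forward core with up to 2 mismatches and no beta or gamma gene had one, against 3.1% of the other genes. The core was perfect at 6 alpha genes, Pcdha1, Pcdha4, Pcdha6, Pcdha7, Pcdha8 and Pcdha12, and 3 of these (Pcdha4, Pcdha6 and Pcdha8) had an optimal summit in the window. Elsewhere, all 4 other genes with a perfect forward core in this window and 28 of the 30 with one in the promoter window had a summit there. Of the 10 alpha genes with a core of up to 2 mismatches in the exonic window, the same 3 had a summit in it. Among other genes with such a core the share was 15.5%. Pcdha1, Pcdha7 and Pcdha12, which had no optimal summit there, had weak pooled-list calls of 12.65, 10.56 and 8.196 in the window.

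Repeated sequence was commonest in the alpha cluster. The share of 32-base words within 500 bp of the start that occur elsewhere in the genome had a median of 21.2% in alpha (range 0 to 28.7), 0% in beta (0 to 15.8) and 1.55% in gamma (0 to 29.0), and 0% at the 456 other genes of chromosome 18. Within gamma the B genes had a median of 19.2%. Pcdha6, with the strongest alpha peak, had the highest alpha value of 28.7%, whereas Pcdhac1 and Pcdhac2 had 0%. The summits of Pcdha4, Pcdha6 and Pcdha8 lie inside the first exon, however. Over the whole first exon the median was 20.98% in alpha, 9.17% in beta, 3.18% in gamma and 22.04% in the gamma B genes. There Pcdha7, which had no optimal peak, held the highest alpha value of 36.43%. Pcdha6 had 33.08%, Pcdha8 29.95% and Pcdha4 17.88%. The part of repetition in the signals was not tested. The CpG content of the starts, as observed over expected ratio, had medians of 0.69 in alpha, 0.38 in beta and 0.59 in gamma, and 1 alpha, no beta and 2 gamma starts were CpG-rich (GC of at least 50% and a ratio of at least 0.6). The share of CpG-rich starts among other genes is not given here, so these counts are no result about the clusters.

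No optimal summit was found within 2 kb of the first exon of 28 members. In alpha these were Pcdha1, Pcdha2, Pcdha3, Pcdha5, Pcdha7, both genes named Pcdha11, Pcdha12 and Pcdhac2. In beta they were Pcdhb1, Pcdhb2, Pcdhb4 to Pcdhb9, Pcdhb11 to Pcdhb14, Pcdhb18 to Pcdhb20 and Pcdhb22, and in gamma Pcdhga9, Pcdhgc4 and Pcdhgc5. Most of them still had a weak call at the usual place. Together with Pcdhgb2, 29 members had no optimal summit within 1 kb of the start, and 20 of these had a pooled-list call 100 to 400 bp upstream of the coding start, compared with 15.2% of other genes without an optimal summit. The calls were found at 13 of 16 beta, 5 of 9 alpha and 2 of 4 gamma genes, with signals from 5.20 to 21.96 and a median of 11.3. Of the 20, 15 had a call in both replicates. The strongest were Pcdhb22 (21.96), Pcdha3 (19.00), Pcdhb4 (18.07) and Pcdhga9 (16.40), which reach into the range of the weakest optimal peaks.

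The 4 genes described as lacking the promoter element had no call 100 to 400 bp upstream of the coding start in the pooled list or in either replicate. The annotated starts of Pcdhac2 and Pcdhgc4 lie 466 and 454 bp before the coding start. For these genes the start itself is outside the window, and weak calls there were not searched. Pcdhac2, the last alpha gene, had its nearest peak 53.56 kb from the first exon, at Pcdhac1. Pcdhb1, the first beta gene, had its nearest peak 33.27 kb away, at Pcdhb3. Pcdhgc4, which neurons need for survival, and Pcdhgc5, the last gamma gene, had theirs 8.76 and 13.2 kb away, at Pcdhgc3. The motif scores at Pcdhb1, Pcdhgc4 and Pcdhgc5 were below the threshold, and that at Pcdhac2 was above it. Other genes lacked a call as well. Pcdha1, Pcdha7, Pcdha12, Pcdhb9 and Pcdhb13 also had no pooled-list call in the window, although Pcdhb9 had a call of 4.076 in replicate 1. The nearest optimal peak lay 20.56 kb from Pcdha1 and 4.29 kb from Pcdhb22, the first alpha and the last beta gene.

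CTCF peaks were denser in the gamma cluster than in alpha and beta, which were close to the density of the autosomes. The gamma cluster held 20 peaks in 180.1 kb, or 11.1 per 100 kb, against 1.94 in alpha, 2.31 in beta and 2.26 over the autosomes. The flank downstream of gamma held 12 peaks in 200 kb (6.0 per 100 kb), and the flank upstream of alpha held 4 (2.0 per 100 kb). Between the outer ends of the 3 clusters, 29 peaks lay at first exons and 5 elsewhere. Long stretches had no summit at all, the longest of 150.2 kb from the upstream flank (36803026) to Pcdha4 (36953230). A stretch of 142.0 kb from Pcdhb21 to the peak before Pcdhga1 and another of 128.5 kb from Pcdhac1 to the peak between alpha and beta also had none.

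Among the 5 peaks away from first exons of members, the strongest (180.3, with 97.45 and 82.9 in the replicates) lay at chr18:37761539-37761795. It ends just before the start at 37761801 of Pcdhgb8, which the annotation calls a polymorphic pseudogene and which is therefore no member. Its summit is 220 bp upstream of the annotated coding start, within the range of the gamma genes. The signal lay between those of its neighbours Pcdhga11 and Pcdhga12 and stood at percentile 94.3 of peaks with its 4 mismatches. A peak of 105.5 (46.91 and 59.37) lay at chr18:37841384-37841532 in the last exon that all gamma genes share, outside the coding sequence, over a reverse core with 1 mismatch. An intergenic peak of 62.5 (26.41 and 36.43) lay between alpha and beta at chr18:37218296-37218579, 30.8 kb after the end of the alpha cluster, also over a reverse core with 1 mismatch. A peak of 61.9 (34.37 and 27.86) lay 6.21 kb before Pcdhga1 in an exon of the noncoding gene 3222401L13Rik. The weakest, 31.6 (19.63 and 11.39), lay in an intron of the gamma genes at chr18:37771963-37772246.

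The direction of the motif was mixed away from the starts of the members. At the alpha and beta peaks the matrix match was forward in 5 of 5 and 6 of 6 cases. The peak between alpha and beta was reverse, that before Pcdhga1 was forward, and in the gamma cluster 3 peaks were forward, 2 reverse and 15 without a match. The forward ones lay at the starts of Pcdhga3, Pcdhga7 and Pcdhga11. The reverse pair were the peak in the shared last exon and the second peak of Pcdhga8. Downstream of gamma 4 peaks were forward, 4 reverse and 4 without a match, and upstream of alpha 1 was forward and 3 were reverse.

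The flanking peaks were stronger than those of most members. The 5 strongest gamma members (123.7 to 204.6) exceeded the 5 weakest of the 16 flank peaks. In the downstream flank the median signal was 256.2 and the range 101.0 to 472.8, so the weakest of these peaks exceeded every alpha and beta peak. The strongest were in and near Diaph1, which encodes a formin that assembles actin filaments. They comprised 472.8 (234.4 and 242.7 in the replicates) at chr18:37883481-37883858, 451.7 (231.8 and 220.4) at chr18:37935508-37935813, 0.28 kb from the Diaph1 start, and 436.6 (224.8 and 210.4) at chr18:37852136-37852507. The first and the last of these are intronic, have 4 and 5 core mismatches and no matrix match, and both stand at percentile 99.8 of peaks with as many mismatches. An intronic peak of Arap3, a gene for a GTPase-activating protein, had 395.3 (203.1 and 192.0) over a perfect forward core, and an intergenic peak at chr18:38013774-38014050 had 380.1 (193.7 and 188.2). Upstream of alpha the strongest was 283.4 (149.6 and 132.1), in an intron of Tmco6.

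Related gene families had peaks at a smaller share of their genes than the gamma cluster. Of the 12 non-clustered protocadherin genes, which encode related adhesion proteins from single loci, 4 had a summit within 2 kb of the first exon (33.3%, 9.93 to 65.1) and none within 1 kb of the start. These were Pcdh8 (214.7), Pcdh17 (116.7), Pcdh7 (90.7) and Pcdh12 (17.9). Of these values, 3 exceeded the gamma median of 60.2, but that median is of summits within 1 kb of the start, so the places differ. Of the 9 Ugt1a genes, liver enzymes whose variable first exons are also spliced to shared exons, 1 had a summit, Ugt1a7c (20.4). Of the 39 Hox genes, clustered regulators of body pattern, 8 had one (20.5%, 9.30 to 36.5), with a median of 173.4 over the 5 within 1 kb of the start. The gamma interval of 63.7 to 96.95% lies above the Hox and Ugt1a intervals and overlaps slightly with that of the non-clustered protocadherins; the differences were not tested.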

How the data were processed

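CTCF ChIP-seq of newborn liver was analysed from 5 peak lists on mm10, per the labels: 1 list per replicate, a pooled list made from both, and the conservative and optimal lists made from these 3 by the irreproducible discovery rate. The signal and the summit offset of each peak are the values the authors deposited. Which aligner and caller made them is not given in the sources used here. No read counts were used, so the depth is unknown and no interval is given for a signal.

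Genes came from GENCODE M21, and a first exon is that of the transcript with the longest coding sequence. Of the optimal peaks, 57197 lay on assembled chromosomes. Intervals on shares are exact (Clopper-Pearson, 95%). With 1 group, counts and values are described beside the same quantity over all other protein-coding genes or all peaks, and no test was made. Scripts used Python 3.11.15, numpy 2.4.6, pandas 2.3.3, scipy 1.17.1 and matplotlib 3.10.9, and were tested on simulated data. Read-through genes (3) were left out of the annotation of peaks.

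The members, the lists and the comparisons were chosen with earlier results of these data known. Named with values are the 5 members with the strongest peak in each cluster, the C-type genes, the first and last gene of each cluster, genes without a peak, and the strongest other peaks, and further members were added after their values were seen. Results were recomputed with the conservative list, the 28610 stronger optimal peaks, the strongest pooled-list peaks, either replicate alone, the most 5' transcript, and other distances, flanks and mismatches.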

Additional observations from a re-analysis of the deposited data

How the results depend on the processing

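The gamma cluster had the highest share of genes with a peak under every list and distance tried, but the counts depended on weak peaks. Among the stronger 28610 peaks, 7 members had a summit within 2 kb of the first exon, all 7 in gamma with 0 in alpha and 0 in beta, and 6 within 1 kb of the start, all 6 in gamma. That list left 6 peaks at first exons and 2 elsewhere between the outer ends, with 0 forward and 0 reverse cores at first exons and 1 reverse core elsewhere, and a gamma median percentile of 35.8. Without replicate 2 beta had 11 genes and without replicate 1 it had 7, against 6. Within 500 bp of the start alpha had 2 genes, against 5 within 1 kb. Forward cores at first exons numbered 3 with at most 1 mismatch, 16 with at most 3 and 14 by the matrix, which counted 1 forward match elsewhere. The conservative list held 0 reverse cores at first exons. With flanks of 100 kb, 0 upstream and 7 downstream peaks were counted. The median percentile of the signal within 2 kb was 22.1 in alpha (12.6 to 18.9 with 1 replicate alone). It was 28.8 in beta (20.4 to 21.1 with 1 replicate, 20.2 conservative, 22.2 pooled, 23 within 1 kb, 31.4 within 5 kb) and 45.5 in gamma (44.9 to 47.3 with 1 replicate, 43.1 conservative). The cause of these shifts was not tested. Another 111 recomputed values, and 2 by the matrix, stayed within 1 SD of the replicates or, for counts, within 1.5 times, a limit that the beta counts of 9 (within 5 kb of the exon, and within 1 kb of the start without replicate 2) reach. No paired analysis was possible because the series has only 1 group.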
